A study of Homo sapiens with 12 samples.

Results

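The 7 endothelin system genes EDN1, EDN3, EDNRA, EDNRB, ECE1, ECE2 and ECEL1 were followed in 12 RNA-seq libraries of SH-SY5Y cells, a human neuroblastoma line that extends neurites when it receives all-trans retinoic acid (ATRA). They were taken by symbol from 55765 gene symbols in the count table, and all 7 had at least 1 read in at least 1 library. They were chosen with earlier results of these counts known, EDNRA because it was higher in treated cells of both experiments and ECEL1 because it set pre-treatment control 3 apart from treated cells. The treated and control values of all 7 are therefore given as a description, with no p-value. Calls from the fit over all genes are counted further on, beside the share of all genes called, and nothing is read from them. Each of the 2 experiments compared 3 libraries of cells that had no hydrogen peroxide (H2O2) with 3 of cells that received it. For co-treatment, co control cells received ATRA alone for 7 days and co treated cells received H2O2 together with ATRA for the same 7 days. In the pre-treatment experiment, pre treated cells were kept in H2O2 for 72 h and then differentiated with ATRA over 7 days, whereas pre control cells had no H2O2. The H2O2 dose is 10 mM in the deposited description and 10 μM in the methods of the study. The labels call both control groups untreated. By the study's methods, all 4 groups are the same cell line and all were differentiated with ATRA (10 μM), so levels before ATRA are not given. The labels name the parental line SK-N-SH as the source, and do not say whether replicates came from separate cultures, so p-values below measure the spread between these samples, which may be technical.

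Endothelins are short peptides that constrict blood vessels and guide neural crest cells, the embryonic population from which neuroblastoma arises. They are made as long precursors, and endothelin-converting enzymes cut the last intermediate to the active form. The active peptide acts on a pair of G protein-coupled receptors, EDNRA, which prefers EDN1 and EDN2, and EDNRB, which binds all endothelins. ECE1 is the main converting enzyme, ECE2 is a neural relative that works at acidic pH, and ECEL1 belongs to the same metallopeptidase family but is not known to process endothelins.

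The stretches of coding sequence that give the peptides and enzymes their activity were read from the canonical GENCODE transcripts on GRCh37, which is the hg19 build used for the counts. The first set shows the 63 bases that encode the mature peptide of each endothelin, with the 4 cysteine codons in capitals, because these cysteines form the paired bridges of the active peptide.
EDN1: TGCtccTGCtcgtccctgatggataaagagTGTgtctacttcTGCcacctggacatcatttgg
EDN2: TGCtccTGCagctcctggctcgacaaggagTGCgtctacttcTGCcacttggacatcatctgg
EDN3: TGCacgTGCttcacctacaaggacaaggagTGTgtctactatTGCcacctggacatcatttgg
These lie in exon 2 of 5 in each gene, at chr6:12292666-12292728 on the plus strand for EDN1, chr1:41949732-41949794 on the minus strand for EDN2 and chr20:57876701-57876763 on the plus strand for EDN3. EDN1 and EDN3 share 50 of these 63 bases and EDN1 and EDN2 share 51. The second set shows 45 bases around the zinc-binding site of the 3 enzymes, with its 5 codons in capitals, because this site is the catalytic centre that the enzymes have in common.
ECE1: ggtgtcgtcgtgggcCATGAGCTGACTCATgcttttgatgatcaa
ECE2: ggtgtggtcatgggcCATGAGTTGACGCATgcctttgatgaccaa
ECEL1: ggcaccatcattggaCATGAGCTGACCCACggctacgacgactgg
ECE1 (chr1:21553653-21553697, minus strand, exon 16 of 19) and ECE2 (chr3:184008603-184008647, plus strand, exon 16 of 19) share 39 of the 45 bases. ECEL1 (chr2:233346493-233346537, minus strand, exon 13 of 18) shares 27 with ECE1 and 28 with ECE2.

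Libraries held between 27576276 and 98287391 reads counted on genes, so that 1 read corresponded to 0.01045 to 0.03553 CPM (the read count relative to library size, scaled with TMM factors over all 12 libraries). No replicate repeated another of its group, since the chi-square per degree of freedom between replicates was 24.8 to 545. Pre control 3 lay far from pre controls 1 and 2. Its distance on log2 CPM was 186 to 190 from pre controls 1 and 2 and 112 to 140 from the pre treated libraries, while pre controls 1 and 2 were 97.0 from each other. From the co controls, pre control 3 was 107 to 124 away, and pre controls 1 and 2 were 136 to 182 away. Which of the pre controls are unusual was not tested. The number of reads in no gene for each read in a gene was 0.7997 and 0.8301 in pre controls 1 and 2, 0.200 in pre control 3 and 0.263 to 0.4621 in the other 9 libraries. Pre-treatment results are therefore given without and with pre control 3. The labelled cell type was checked on its markers, and all 5 neuronal markers were above 1 CPM in every group, as were 5 of 6 noradrenergic neuroblastoma markers, with TH at 0.0316 to 0.159 CPM in the group means. The noradrenergic markers summed to 1420 to 1980 CPM in co control, 1070 to 1440 in co treated, 1210 to 2040 in pre control and 823 to 1160 in pre treated cells, so that the pre-treatment groups did not overlap. The mean of DBH was 600 CPM in pre control and 214 CPM in pre treated cells. These sums were lower where EDNRA and EDN1 were higher, and their part in the values of the 7 genes was not tested. In bulk RNA, fewer cells of a type and less RNA per cell cannot be told apart.

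EDNRA, the receptor through which EDN1 drives contraction and neural crest patterning (chr4:148402069-148466106, plus strand), was higher in each of the 6 treated libraries than in any of the 6 controls. It had 23.6, 21.6 and 20.2 CPM in co controls 1 to 3 and 47.7, 47.0 and 51.9 CPM in co treated replicates 1 to 3. The groups did not overlap, and the replicates of each group lay close together, with means of 21.8 ± 1.72 CPM in co control and 48.9 ± 2.67 CPM in co treated cells (SD, n = 3 each). The fitted log2 fold change (log2FC) was 1.17 with a standard error of 0.12, and it lay between 1.11 and 1.23 with any 1 library left out.

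In the pre-treatment experiment, EDNRA had 29.2, 9.39 and 32.8 CPM in pre controls 1 to 3 and 49.2, 39.4 and 47.9 CPM in pre treated replicates 1 to 3. Replicates 1 and 3 of the treated cells lay within the range of the co treated libraries and replicate 2 below it, and all 3 were above the pre controls. The controls spread widely, with pre control 2 lowest of all 12 libraries. Without pre control 3, the log2FC was 1.26 (standard error 0.39), and with all 6 libraries it was 0.93 (standard error 0.40). The size depended on pre control 2. Without that library, the log2FC was 0.67 against pre control 1 alone and 0.55 against pre controls 1 and 3, and without pre control 1 it was 2.32 against pre control 2 alone, where a lone control is assumed to vary like the treated libraries. In pre control 2, EDN1 and EDN2 had no read, and ECE1 had its highest level of all 12 libraries.

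**Figure D1:**
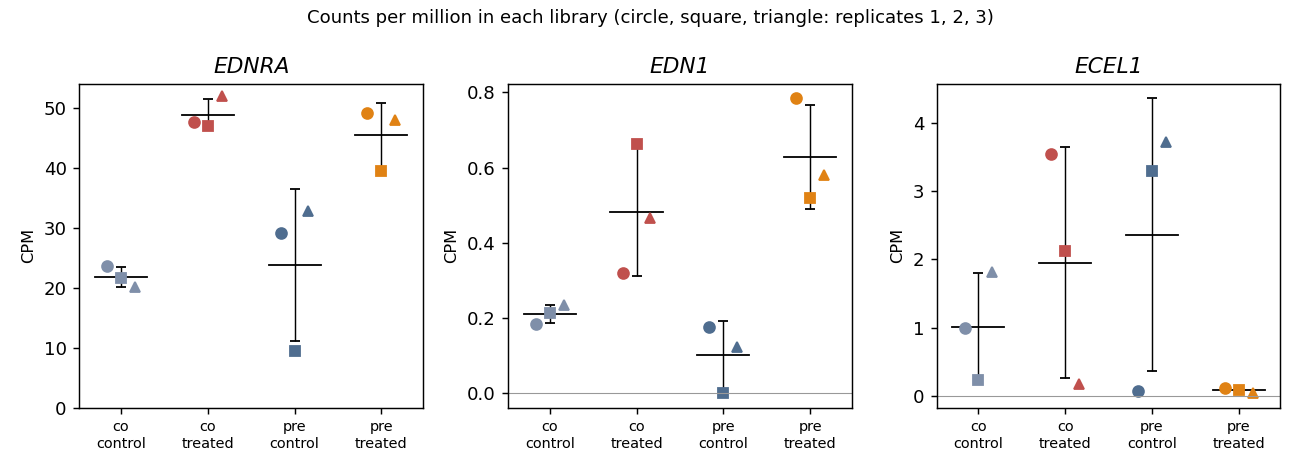
CPM (vertical axis, from 0) of EDNRA, EDN1 and ECEL1 in the 4 groups. Each point is 1 library (circle, square and triangle for replicates 1, 2 and 3) and bars are the mean ± SD of 3. For EDNRA the 6 treated libraries sit between 39.4 and 51.9 CPM, above all 6 controls, while ECEL1 is high in pre controls 2 and 3 and near 0 in pre control 1 and the pre treated libraries.

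To show what lies upstream of this gene, the 250 bases before the EDNRA start were taken from RefSeq promoters (GRCh38.p14, chr4:147480847-147481096, plus strand), with motif matches in capitals.
EDNRA promoter: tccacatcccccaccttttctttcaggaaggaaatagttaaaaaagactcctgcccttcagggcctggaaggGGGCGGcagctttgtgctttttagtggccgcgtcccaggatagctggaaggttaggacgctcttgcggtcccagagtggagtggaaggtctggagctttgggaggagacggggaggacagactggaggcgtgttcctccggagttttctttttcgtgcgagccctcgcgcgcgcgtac
The window was searched on both strands for the GC box GGGCGG, the AP-1 site TGACTCA, the core TGACNNNGC of the antioxidant response element and the AGGTCA core that retinoic acid receptors bind. It held 1 GC box, 178 bases before the start, and none of the other motifs. Among 35116 promoter windows of the same length, 42.6% held a GC box, 4.2% the AP-1 site, 10.9% the antioxidant core and 12.1% the receptor core. GC content of the window was 57.6%, with 15 CpG dinucleotides.

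EDNRB, the receptor for all endothelins, which enteric neural crest cells require (chr13:78469616-78549664, minus strand), was close to the limit of detection. There were 2 to 14 reads in the controls and 2 to 21 reads in the treated libraries, or 0.0428 to 0.272 CPM in all 12. The groups overlapped in both experiments. It fell under the count filter in the co-treatment experiment, and its log2FC was 0.41 (standard error 0.69) in the pre-treatment experiment without pre control 3 and 0.18 (0.62) with it, where leaving out pre control 1 gave -0.21 and -0.20 and leaving out pre control 2 gave 1.48 and 0.44. The sum of reads per exon length was almost entirely EDNRA, which made up 98.14% to 99.89% of the 2 receptors together, with the lowest share in pre control 2. EDNRB-AS1, a noncoding RNA on the opposite strand, beyond the end of EDNRB (chr13:78353858-78418280), had 0 to 20 reads per library.

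Among the ligands, EDN1, the endothelin of blood vessel endothelium (chr6:12290594-12297427, plus strand), had few reads in all libraries and more of them in treated cells. There were 9, 10 and 8 reads in co controls 1 to 3 and 9, 41 and 24 in co treated replicates 1 to 3, which correspond to 0.184, 0.214 and 0.233 CPM and to 0.320, 0.662 and 0.467 CPM. The groups did not overlap, but the counting interval of co treated 1 (0.146 to 0.607 CPM, 95% Poisson) covered every control value. The log2FC was 1.22 (standard error 0.52). In the pre-treatment experiment, EDN1 had 10, 0 and 8 reads in pre controls 1 to 3 and 75, 35 and 46 in pre treated replicates 1 to 3, or 0.177, 0 and 0.123 CPM against 0.784, 0.518 and 0.581 CPM. Each pre treated library lay above all 6 controls of both experiments. The log2FC was 2.75 (standard error 0.83) without pre control 3 and 2.59 (0.82) with it. When pre control 2, the library with no read, was left out, these were 1.85 and 2.05. Leaving out pre control 1 gave 8.52 against pre control 2 alone, a value that rests on its count of 0, and 3.21 against pre controls 2 and 3. Poisson intervals cover counting error only.

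EDN3, the ligand that acts on EDNRB in the enteric neural crest (chr20:57875498-57901047, plus strand), had no read in 9 libraries and 1, 6 and 2 reads in pre treated replicates 1 to 3. A count of 0 allows up to 3 reads, which is 0.04626 to 0.1066 CPM in the 9 libraries, and 2 of the 3 treated values (0.0104 and 0.0253 CPM) lie under that limit, so no fold is given. The value in pre treated 2 was 0.0888 CPM, with a 95% Poisson interval of 0.0326 to 0.193. EDN2, the third endothelin (chr1:41944446-41950354, minus strand), had 0 to 19 reads per library. Its log2FC was 0.08 (standard error 0.63) after co-treatment and 0.70 (1.02) after pre-treatment without pre control 3. The 3 peptide genes together had 0 to 29 reads in each control library and 13 to 95 in each treated library.

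The source of endothelin in tissue is mostly endothelium, and its defining markers were near 0 in these libraries. CDH5 had no read in 3 of the 4 groups and at most 0.0418 CPM, VWF had at most 0.272, KDR at most 0.416, TEK at most 0.355 and TIE1 at most 0.0643 CPM. CLDN5 reached 1.60 CPM, and the 6 markers summed to 1.07 to 2.11 CPM over the 12 libraries, with 1.25 to 1.73 in co control, 1.65 to 1.95 in co treated, 1.21 to 2.11 in pre control and 1.07 to 1.71 in pre treated cells. Most of the sum was CLDN5. The mean of TEK was 0.0648 CPM in co control, 0.131 in co treated, 0.116 in pre control and 0.273 in pre treated cells, and VWF had 0.108, 0.200, 0.114 and 0.0969 and KDR 0.0376, 0.182, 0.253 and 0.204 CPM in the same order. Smooth muscle carries EDNRA, and of 7 smooth muscle and pericyte markers DES had at most 0.0291 CPM. MYH11 had a lower mean in treated cells of both experiments, with 1.88 CPM in co control, 1.53 in co treated, 2.25 in pre control and 1.26 in pre treated cells. CNN1 had 0.859, 1.16, 0.61 and 1.2 CPM in the same order. The mean of ACTA2 was 3.39 CPM in co control, 5.64 in co treated, 2.73 in pre control and 6.29 in pre treated cells. TAGLN had 7.39, 8.56, 3.81 and 8.77 CPM and MCAM 21.2, 30.4, 16.5 and 24.8 CPM in the same order. Their summed level, 6470 to 7320 CPM in controls and 5010 to 6700 in treated cells, was nearly all RGS5. The part of these genes in the EDN1 and EDNRA values was not tested. Schwann and glial markers summed to 6.63 to 9.09 CPM, with 6.63 to 7.81 in controls and 6.63 to 9.09 in treated cells.

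Among the enzymes, ECE1 (chr1:21543740-21672065, minus strand) was abundant and lower in pre treated cells than in any pre control. It had 84.7, 105 and 61.6 CPM in pre controls 1 to 3 and 36.5, 45.2 and 47.3 CPM in pre treated replicates 1 to 3. The groups did not overlap, although pre control 3 lay closest to the treated libraries. The log2FC was -1.12 (standard error 0.15) without pre control 3 and -0.96 (0.22) with it. ECE1 and the reads in no gene moved together among the pre controls, since both were highest in pre controls 1 and 2 and lower in pre control 3, and the part of those reads in the difference was not tested. In the co-treatment experiment, ECE1 had 91.2, 50.1 and 45.4 CPM in co controls and 52.2, 40.6 and 52.0 CPM in co treated cells. These groups overlapped, and the log2FC of -0.37 (standard error 0.23) went to 0.01 without co control 1, the one high library. Its antisense partner ECE1-AS1 was not analysed here, and the strand setting of the counting is not given in the sources used here.

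ECE2 (chr3:183993799-184010819, plus strand) had the most even level of the 7 genes, with an SD over the 12 libraries of 15.6% of its mean. It had 12.5, 13.7 and 14.8 CPM in co controls, 15.2, 10.7 and 13.9 CPM in co treated cells, 9.40, 9.32 and 12.4 CPM in pre controls and 14.5, 12.6 and 12.9 CPM in pre treated cells. The co-treatment groups overlapped, with a log2FC of -0.05 (standard error 0.17), which was 0.09 without co treated 2 and 0.01 with scaling by library size alone. The pre treated libraries lay above the pre controls, by a small margin over pre control 3, with a log2FC of 0.54 (standard error 0.16) without that library and 0.36 (0.20) with it. A read-through gene, EEF1AKMT4-ECE2, covers this locus in the annotation, so the reads of ECE2 may include its transcripts.

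ECEL1, named for its likeness to the converting enzymes and required for motor neuron endings in muscle (chr2:233344537-233352544, minus strand), varied widely between replicates. It had 4, 154 and 242 reads in pre controls 1 to 3 and 11, 6 and 3 reads in pre treated replicates 1 to 3, or 0.071, 3.30 and 3.73 CPM against 0.115, 0.0888 and 0.0379 CPM. Pre control 3, on which the gene was picked, had the highest value, but pre control 2 was nearly as high and pre control 1 was within the range of the treated libraries, so the groups overlapped. Too few libraries passed the filter for a fit in this experiment. A wide spread was also seen in the co-treatment experiment, with 0.999, 0.235 and 1.81 CPM in co controls and 3.55, 2.13 and 0.175 CPM in co treated cells, where the log2FC was 0.94 (standard error 0.80), with 0.22 without co treated 1 and 1.62 without co control 3. The lowest and highest libraries of the 12 were 0.0379 and 3.73 CPM. Its pseudogenes, which can share reads with it, had 0 to 4 reads (ECEL1P2) and 2 to 21 reads (ECEL1P3) per library, and ECEL1P3 had 10 and 4 reads in pre controls 2 and 3.

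**Figure D2:**
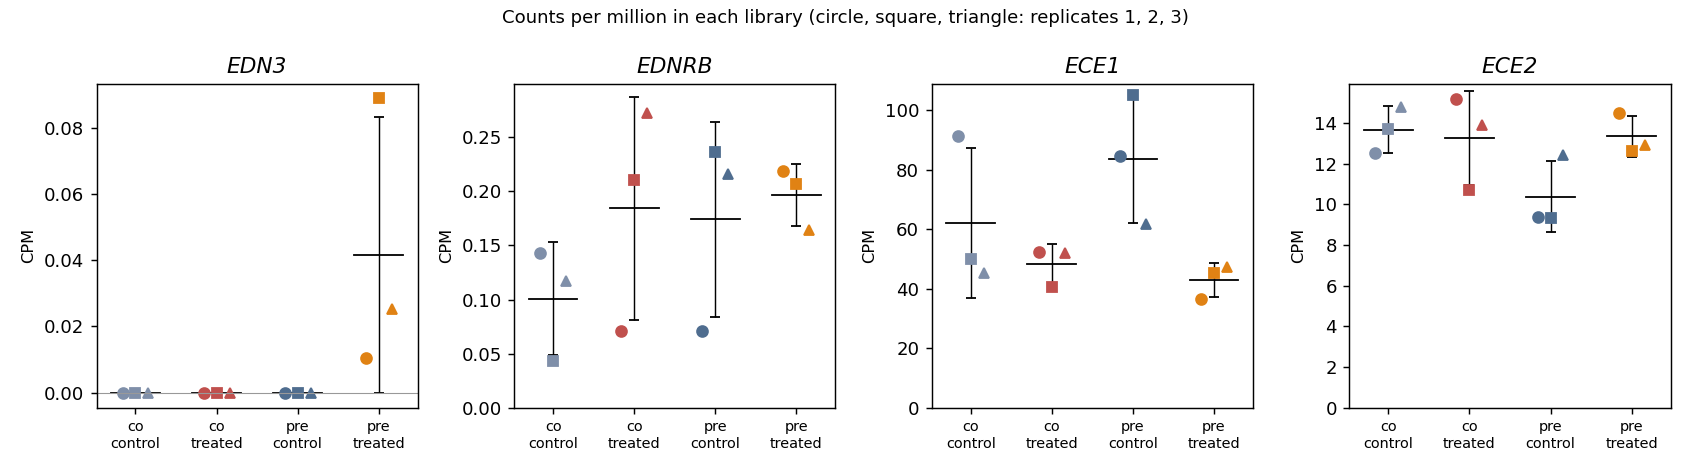
CPM (vertical axis, from 0) of EDN3, EDNRB, ECE1 and ECE2 in the 4 groups, with 1 point for each library (circle, square and triangle for replicates 1, 2 and 3) and bars for the mean ± SD of 3, cut at 0 for EDN3. ECE1 is at 61.6 to 105 CPM in pre controls and 36.5 to 47.3 CPM in pre treated cells, EDN3 has reads only in pre treated libraries, and EDNRB stays at or below 0.272 CPM.

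**Figure D3:**
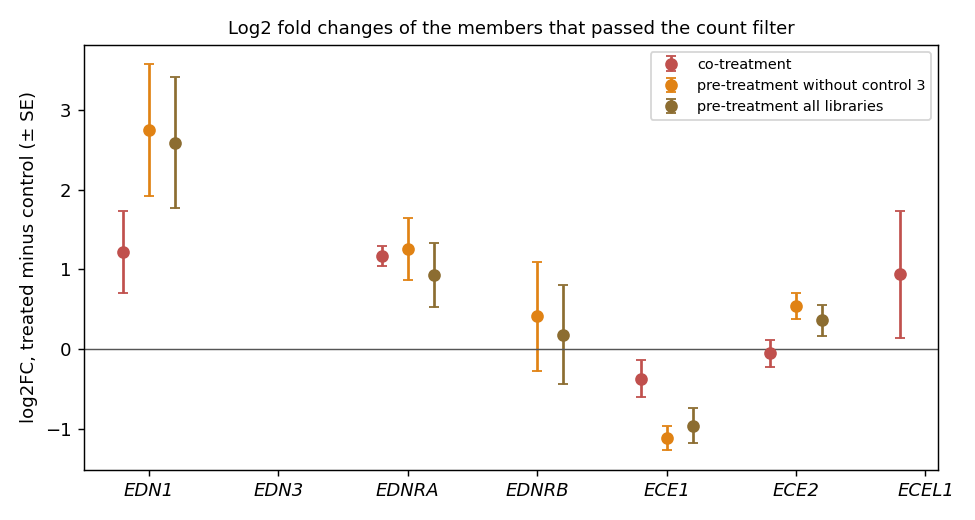
Fitted log2FC of treated against control cells (vertical axis, ± standard error) for each member in the co-treatment comparison and in the pre-treatment comparison without pre control 3 and with all 6 libraries. EDNRA is at 1.17, 1.26 and 0.93 and ECE1 at -0.37, -1.12 and -0.96, and members without a point had too few reads for the filter.

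Of the 7 members, 5 passed the filter on low counts in the co-treatment comparison, and 1 of them, EDNRA, was called by edgeR's quasi-likelihood test (FDR under 0.05, log2FC beyond 0.6 either way), where 0.598% of all genes tested were called and 0.335% were called higher. The groups did not overlap for 2 of the 5 members, both higher, beside 6.66% of all genes higher and 14% in either direction. In the pre-treatment comparison without pre control 3, 5 members passed the filter and 3 were called with log2FC beyond 1 (EDNRA and EDN1 higher, ECE1 lower), where 11.2% of all genes were called. Here 4 of the 5 did not overlap, beside 57.7% of all genes. With all 6 libraries none of the 5 was called, where 0.0242% of all genes were called and 2776 genes had an unadjusted p under 0.05, and 4 of the 5 did not overlap, beside 16.4% of all genes. DESeq2 called EDN1 over the 6 libraries, and edgeR's exact test and limma-voom called none of the 5. The median log2FC of the tested members was the value of 1 gene, ECEL1 at 0.94 (standard error 0.80) after co-treatment. After pre-treatment it was that of ECE2, 0.54 without pre control 3 and 0.36 with it. Medians over all genes were -0.001, 0.011 and -0.007. EDNRA was chosen for being higher and the tested members differed between the experiments, so nothing is read from these medians. Without pre control 3, the call of ECE1 was not made when pre control 2 was left out (log2FC -0.95). Those of EDNRA and EDN1 were not made when pre control 2 (0.67 and 1.85), pre treated 1 (1.20 and 2.55), pre treated 2 (1.36 and 2.87) or pre treated 3 (1.19 and 2.76) was left out. Scaling by library size alone also ended the calls of EDNRA (1.03) and EDN1 (2.52), and DESeq2 did not call EDNRA (1.24).

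Scaling does not enter the ratio of EDNRA to ECE1 reads within a library. It was 0.259, 0.431 and 0.444 in co controls and 0.914, 1.16 and 0.999 in co treated cells, and 0.345, 0.089 and 0.533 in pre controls and 1.35, 0.872 and 1.01 in pre treated cells. Every treated library was above every control library. EDNRA was chosen because it was higher in treated cells, and ECE1 was lower in pre treated cells. This separation is therefore a description and adds no support to the EDNRA difference. Per kilobase of exon, EDNRA was below ECE1 in all 6 controls, with a ratio of 0.154 to 0.919, and above it in all 6 treated libraries, with a ratio of 1.5 to 2.33. The lengths come from an annotation that may differ from that used for the counts, which would scale all 12 ratios alike.

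Levels per length spanned a wide range between members. Over the 12 libraries, EDNRA had a mean of 8.26 ± 3.34 CPM per kilobase of exon and ECE1 8.12 ± 3.03 (SD, n = 12), and the values of these 2 overlapped. ECE2 followed at 2.68 ± 0.418, below ECE1 in every library by 1.63 to 7.32 times. ECEL1 had 0.455 ± 0.500, EDN1 0.175 ± 0.119 and EDN2 0.107 ± 0.0658 CPM per kilobase, and these 3 overlapped each other. EDNRB had 0.0293 ± 0.0133 and EDN3 0.00315 ± 0.00785 CPM per kilobase, with EDN3 at 0 in 9 libraries. The lowest value of EDNRA, 2.22 CPM per kilobase, lay above the highest of EDN1, 0.385.

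**Figure D4:**
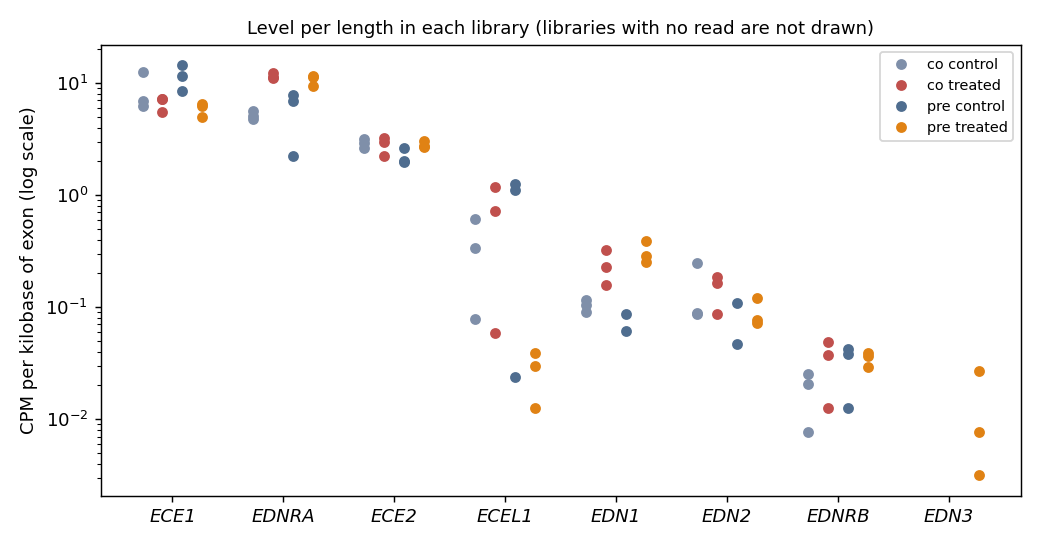
CPM per kilobase of exon (vertical axis, log scale) of the 7 members and EDN2 in each library, coloured by group, with libraries that had no read left out. ECE1, EDNRA and ECE2 lie at 1.97 CPM per kilobase or more in every library, and EDNRB and EDN3 lie at 0.0486 or less.

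The control libraries of the 2 experiments were compared to see whether the members had the same level in cells that received ATRA without H2O2. EDNRA was chosen on its values against both control groups and ECEL1 on a pre control, so EDNRA is given without a p-value and ECEL1 is left out. The experiment and any batch of culture or sequencing cannot be told apart. With edgeR's quasi-likelihood test, no gene of 23739 was called (FDR under 0.05 and log2FC beyond 1, 0%), and 1551 had an unadjusted p under 0.05. EDNRA had a log2FC of 0.14 in pre against co controls (standard error 0.39), which was -0.16 without pre control 3, 0.52 without pre control 2 and -0.02 with a replicate block. ECE1 had a log2FC of 0.46 (95% interval -0.15 to 1.07, adjusted p = 0.703), ECE2 -0.38 (-0.74 to -0.01, adjusted p = 0.692), EDN1 -0.99 (-2.84 to 0.86, adjusted p = 0.753) and EDNRB 0.79 (-0.73 to 2.32, adjusted p = 0.758). These intervals are wide and do not show equal levels. Same-numbered controls of the 2 experiments had residual correlations of 0.296, -0.122 and 0.245. Without pre control 3, 10.2% of 25545 genes were called and none of ECE1, ECE2, EDN1 and EDNRB was. ECE2 then had a log2FC of -0.53 (adjusted p = 0.0535) and ECE1 one of 0.62 (adjusted p = 0.123).

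Over the 12 libraries, the 3 genes whose log2 CPM was most like that of EDNRA, among 15785 genes with a mean of at least 1 CPM, were RAPGEF4, an exchange factor activated by cyclic AMP (Pearson r = 0.961, Spearman rho = 0.881), AP000479.1 (0.958 and 0.874) and PMP22, a myelin membrane protein (0.956 and 0.937). The mean level of RAPGEF4 was 101 CPM in co control, 190 in co treated, 94.3 in pre control and 200 in pre treated cells, and that of PMP22 was 13.9, 23.4, 13.6 and 23.9 CPM. For ECEL1 the closest genes were RP11-347C12.10 (0.883 and 0.867), SMARCB1, a chromatin remodelling subunit (0.848 and 0.839), and DLK1, a Notch-like ligand of immature neural crest cells (0.840 and 0.881). DLK1 had 7.65 CPM in co control, 10.1 in co treated, 21.8 in pre control and 1.26 in pre treated cells. Among the members themselves, EDN1 and EDNRA had the highest r (0.894, rho = 0.741) and EDN1 and ECE1 the lowest (-0.838, rho = -0.881). These values describe 12 libraries that share the split into treated and control cells and, in the pre-treatment experiment, the library differences given above.

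The wider pathway was followed in 9 lists of genes. In the co-treatment comparison, none of 21 tested G proteins and their effectors, through which the receptors signal, was called by edgeR's quasi-likelihood test, nor any of 13 kinases, arrestins and RGS proteins that switch receptors off or 6 tested targets of EDNRA signalling in the neural crest. The median log2FC of these lists was -0.12, -0.11 and -0.06. No call was made either among 14 tested vasoactive peptides and receptors (median log2FC 0.14), 11 regulators of EDN1 (-0.13) or 7 metallopeptidases of the ECE1 family (-0.16).

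In the pre-treatment comparison without pre control 3, 6 genes of the lists that are not members were called. NPPB, which encodes the natriuretic peptide B that relaxes vessels, rose from 0.921 ± 0.123 CPM (SD, n = 2) to 3.40 ± 0.773 CPM (SD, n = 3), with a log2FC of 1.91 (standard error 0.30) and an adjusted p of 0.00429 in edgeR's quasi-likelihood test. After co-treatment it was at 2.16 ± 0.393 CPM in control and 3.19 ± 0.906 CPM in treated cells, with a log2FC of 0.56 that did not pass (adjusted p = 0.655), and the pre controls were thus the lowest of the 4 groups. AGTR1, the receptor of angiotensin II, rose with a log2FC of 1.27 (standard error 0.36, adjusted p = 0.0344), whereas ACE, which makes angiotensin II, fell by 1.18 on the log2 scale (standard error 0.20, adjusted p = 0.00517). BDKRB2, a bradykinin receptor, fell by 1.23 (standard error 0.35, adjusted p = 0.0353). EPAS1, a hypoxia-inducible factor that can act on the EDN1 gene, fell by 1.20 (standard error 0.14, adjusted p = 0.00163), and RET, the receptor tyrosine kinase that works beside EDNRB in enteric neurons, fell by 1.17 (standard error 0.31, adjusted p = 0.0254). That makes 2 higher and 2 lower of 16 tested vasoactive peptides and receptors, 1 lower of 11 regulators of EDN1 and 1 lower of 7 tested enteric neural crest genes, where 2.98% of all genes were called higher and 8.23% lower. No gene was called among the 21 G proteins and effectors, 13 desensitisation genes, 6 EDNRA-dependent crest genes and 2 orphan receptors that resemble endothelin receptors.

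With all 6 pre-treatment libraries, none of these 6 genes was called. Their log2FC values were 1.73 for NPPB (adjusted p = 0.266), 1.06 for AGTR1 (0.350), -0.97 for ACE (0.320), -1.20 for BDKRB2 (0.320), -1.03 for EPAS1 (0.320) and -1.04 for RET (0.336). In each of the 6 genes the groups did not overlap, beside 16.4% of all genes. The 6 genes were picked by their calls in 5 of these same libraries, so that share is no background for them and nothing is read from it. The call of NPPB held with any 1 of the 5 libraries left out. Without pre control 2, EPAS1 (-0.96), ACE (-0.90), RET (-1.11), AGTR1 (0.93) and BDKRB2 (-1.15) were not called. RET was also lost without pre control 1 (-1.20) and pre treated 3 (-0.91), AGTR1 without pre treated 1 (1.26) and pre treated 3 (1.02), and BDKRB2 without any other library of the 5 (-1.43 to -0.98). A fit with a replicate block also ended the calls of RET (-0.88) and BDKRB2 (-0.94), and scaling by library size alone that of AGTR1 (1.05).

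**Figure D5:**
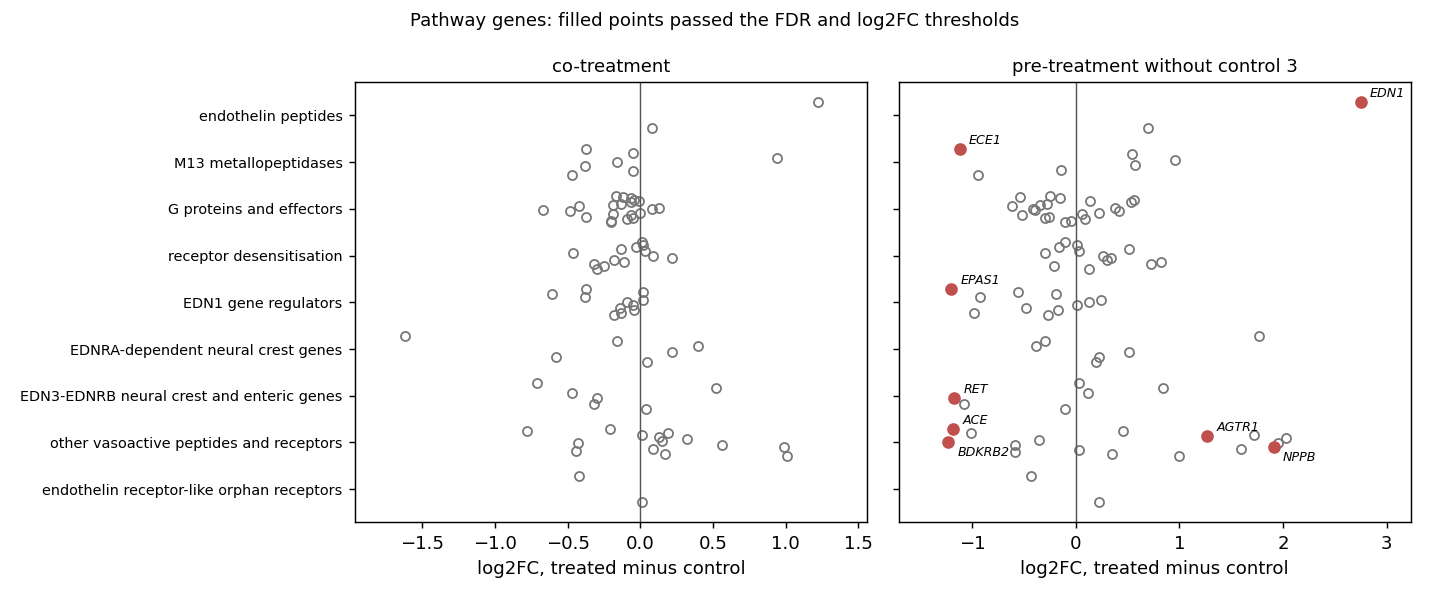
Log2FC of treated against control cells (horizontal axis) for tested genes of the 9 pathway lists (rows), after co-treatment (left) and after pre-treatment without pre control 3 (right). Filled, named points passed the FDR and log2FC thresholds, which holds for none of those drawn on the left and for NPPB, AGTR1, ACE, BDKRB2, EPAS1, RET and the members EDN1 and ECE1 on the right.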

How the data were processed

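RNA-seq libraries without ribosomal RNA were made from SH-SY5Y cells, 12 in all and 3 in each of 4 groups. Per the labels, reads were checked with FastQC 0.11.8, trimmed with cutadapt 2.10, aligned to hg19 with HISAT2 2.1.0 and counted with HTSeq 0.7.2, and the authors deposited raw read counts per gene symbol for each library. The annotation version and the strand setting of the counting are not given in the sources used here. Tables of the authors' own comparisons (log2 fold change, log2 CPM, p-value and FDR) were also deposited and were not used.

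The 5 summary lines of HTSeq were left out of library sizes and tests. Genes were kept when the CPM of 5 reads in the smallest library was reached in a number of libraries equal to the size of the smaller group or more. Counts were scaled with TMM and tested with edgeR 4.0.16 quasi-likelihood fits (R 4.3.3), with Benjamini-Hochberg adjustment over all tested genes, and genes were called at an FDR under 0.05 with log2FC beyond 0.6 (co-treatment) or 1 (all other comparisons) in either direction. Pre-treatment was fitted without and with pre control 3. Levels are CPM scaled with TMM over all 12 libraries, and log2 CPM used a prior count of 2. Poisson intervals are 95%. Exon lengths and coordinates came from GENCODE v44 lifted to GRCh37, and promoters from RefSeq. The code was tested on simulated counts. Alternatives were edgeR's exact test, DESeq2 1.42.0, limma-voom (limma 3.58.1), other scalings, no filter, a replicate block and each library left out in turn.

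Named genes were all 7 members, EDN2, loci that share a member's symbol, the called genes of smallest FDR in each list (at most 4), and the 3 genes most correlated with EDNRA and with ECEL1. The marker PECAM1 was not analysed here. A listed gene is not reported or drawn here. The members and the gene lists were chosen with earlier results of these data known.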

Additional observations from a re-analysis of the deposited data

How the results depend on the processing

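The EDNRA difference after co-treatment kept its direction and size under all 13 alternatives, with a log2FC of 1.11 to 1.23. After pre-treatment without pre control 3 its log2FC was 0.67 to 2.32 with 1 library left out. The number of called genes was less stable. After co-treatment it was 132 (74 higher, 58 lower), against 307 with edgeR's exact test, 308 with DESeq2, 80 (57 higher, 23 lower) with library size scaling, 443 (205 higher, 238 lower) without the filter and 18 to 218 with 1 library left out. After pre-treatment without pre control 3 it was 2952 (784 higher, 2168 lower), against 3413 (399 higher, 3014 lower) with library size scaling, which moved the median log2FC of all genes from 0.011 to -0.208, and 1064 to 3540 with 1 library left out. With all 6 libraries it was 6, against 231 with the exact test, 501 with DESeq2, 0 with limma-voom (2445 genes at an unadjusted p under 0.05), 1 with library size scaling, 300 without the filter and 0 to 2952 with 1 library left out, the highest without pre control 3. Between the control libraries it was 0, against 0 to 2612 with 1 library left out, again highest without pre control 3. The cause of these moves was not tested.

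Replicate numbers were not used to pair samples, since not every same-numbered pair deviated together. The correlation of same-numbered residuals was -0.0784, -0.0789 and -0.0435 in the co-treatment and -0.226, 0.0264 and -0.273 in the pre-treatment experiment, and 0.296, -0.122 and 0.245 between the control libraries. With a replicate block, 180 genes (88 higher, 92 lower) were called after co-treatment, 3768 after pre-treatment without pre control 3, 0 with all 6 libraries and 1 between the control libraries, where the log2FC of EDNRA went from 0.14 to -0.02. The block ended the calls of RET and BDKRB2. Of 848 recomputed values, 739 kept their side of the threshold or moved less than the replicate spread, 87 moved further, 22 lost their call and 0 reversed a call.

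Depth limits EDN1, EDN3 and EDNRB, which had at most 75 reads in any library, so small differences in them were not detectable.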
